A study of Mus musculus with 8 samples.

Results

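The quantity described here is a difference of differences in cardiac fibroblast RNA: the change seen when Smad2 and Smad3 were deleted, minus the change seen when the TGF-beta receptors Tgfbr1 and Tgfbr2 were deleted. It was computed from all 8 libraries of the series, 2 in each of 4 groups, for each of 17770 genes that passed a low-count filter. Per the labels, the first pair of groups came from mice with a MerCreMer knock-in at the Postn locus, without (Postn-Cre control) or with loxP-flanked (flox/flox) Smad2 and Smad3 alleles (Smad2/3 DKO). The second pair had MerCreMer at the Tcf21 locus, without (Tcf21-Cre control) or with flox/flox Tgfbr1 and Tgfbr2 alleles (Tgfbr1/2 DKO). All 4 groups, controls included, also carried a Cre-dependent eGFP reporter at the Rosa26 locus and had tamoxifen, injected at 100 mg/kg for 2 days and then given in chow at 40 mg/kg. All had transverse aortic constriction (TAC), a surgical narrowing that loads the left ventricle, at 8 to 10 weeks of age, and GFP-positive ventricular cells were sorted 4 weeks later. There is no unoperated group, so every value is from a pressure-loaded heart.

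TGF-beta ligands bind a receptor complex of Tgfbr2 and Tgfbr1 at the cell surface, and the active complex phosphorylates Smad2 and Smad3, which move to the nucleus with Smad4 and change transcription. The same receptors also signal through kinases that do not need Smads, and Smad2 and Smad3 also serve activin and related receptors. In cardiac fibroblasts the pathway is best known for inducing collagens, matrix crosslinking enzymes and the contractile genes of myofibroblasts. Periostin (Postn) is switched on in fibroblasts that become activated after injury, whereas Tcf21 marks resident fibroblasts before injury, so the drivers can label partly different cells.

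The Cre driver and the sequencing run changed together: both groups with Postn-MerCreMer were sequenced in 1 run and both with Tcf21-MerCreMer in another. A difference between the effects therefore joins the gene pair deleted, the driver and the run, which cannot be told apart. Each effect by itself compares libraries of 1 run and 1 driver. The labels do not say whether libraries of a group came from separate animals, so the p-values reflect the spread among these libraries, which may be technical. The files hold 21477742 to 32594649 counts per library. A level of 3 counts, used here as the floor for a gene without counts, is 0.092 to 0.14 CPM (counts per 1000000 counts of the library).

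Every library carried the defining fibroblast genes. Across the 8 libraries decorin (Dcn) lay between 8965 and 15433 CPM, and Pdgfra between 327 and 797 CPM. All 10 fibroblast markers were detected in every library. Tcf21 itself was at 26.2 and 25.6 CPM in the Postn-Cre controls, 37.7 and 32.0 in the Smad2/3 DKO, 163 and 111 in the Tcf21-Cre controls and 120.4 and 129 in the Tgfbr1/2 DKO. Postn was at 208 and 186, 295 and 283, 1615 and 3076, and 1489 and 1858 CPM in the same order of groups. Both driver genes were thus lower in the Postn-driven libraries than in the Tcf21-driven ones, and neither was called in any comparison. A MerCreMer knock-in can replace transcript from its own allele.

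None of the targeted genes was called in either comparison. Smad2 lay at 95.4 and 82.3 CPM in the Postn-Cre controls, 84.5 and 78.2 in the Smad2/3 DKO, 67.5 and 63.5 in the Tcf21-Cre controls and 63.3 and 58.2 in the Tgfbr1/2 DKO. Smad3 lay at 113.8 and 92.7, 70.5 and 109, 139 and 132, and 109.8 and 103 CPM. Tgfbr1 lay at 231 and 225, 356 and 292, 229 and 238, and 181 and 193 CPM. Whole-gene counts do not test the loss of single exons, and the exons flanked by loxP are not named in the labels, so these levels do not check the deletions. Tgfbr2 lay at 399.6 and 387, 316 and 339, 370.1 and 406, and 471 and 406 CPM. The mutant groups are therefore named as labelled.

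A gene was called where its adjusted p was under 0.05 in edgeR's quasi-likelihood test with Benjamini-Hochberg adjustment over all 17770 genes, all 8 libraries entering 1 fit with a mean per group. The difference is the log2 fold change of the Smad2/3 DKO against its control minus that of the Tgfbr1/2 DKO against its control. A positive difference means that the Smad2/3 effect was the more positive of the pair. It was called for 326 genes (1.83% of those tested). Of these, 118 were higher (0.664%) and 208 were lower (1.17%). The Smad2/3 effect by itself was called for 180 genes (1.01%), 77 up (0.433%) and 103 down (0.580%). The Tgfbr1/2 effect was called for 299 genes (1.68%), 203 up (1.14%) and 96 down (0.540%). An unadjusted p under 0.05 for the difference was reached by 3092 genes.

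Over all tested genes the fitted effects were nearly uncorrelated. Most of these genes were called in neither comparison, and noise in their fitted effects weakens any correlation. Pearson's r across genes was -0.0541 and Spearman's rho was -0.0678, as a description of 17770 genes that share the same 8 libraries. Both fitted effects were positive for 23.8% of genes and both negative for 24.0%. The Smad2/3 effect was negative and the Tgfbr1/2 effect positive for 25.5%, with the reverse for 26.6%. The median of all genes was 0.01 for the difference, 0.01 for the Smad2/3 effect and -0.01 for the Tgfbr1/2 effect.

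Among the 326 genes called for the difference, 193 had a negative Smad2/3 and a positive Tgfbr1/2 effect, 112 the reverse, 13 were positive in both and 8 negative in both. Opposed effects reach a large difference more readily than parallel ones, so this split follows in part from the test. For 79 of the 326 only the Smad2/3 effect was called by itself, for 117 only the Tgfbr1/2 effect, for 16 both and for 114 neither. Most differences thus rest on a change called in at most 1 of the comparisons.

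In both comparisons 29 genes were called, 0.163% of those tested. They are 29 of the 180 Smad2/3 calls, whereas 1.68% of all genes had a Tgfbr1/2 call. They are also 29 of the 299 Tgfbr1/2 calls, whereas 1.01% of all genes had a Smad2/3 call. Of the 29 genes, 14 moved the same way, which is 7.78% of the Smad2/3 calls and 4.68% of the Tgfbr1/2 calls. The other 15 moved oppositely, 8.33% and 5.02%. All 15 opposed genes were also called for the difference, against 1 of the 14 parallel genes. Both classes are small and each depends on single libraries. Leaving out 1 library at a time gave 4 to 19 parallel genes, fewest without Tgfbr1/2 DKO HK4, and 4 to 16 opposed genes, fewest without Smad2/3 DKO HK15. Adam12 and Angptl4 among the opposed genes, and Manf and Ahsg among the parallel ones, were called in both comparisons in each of these 8 fits. The Smad2/3 call of Ahsg, which rests on 10 counts in the Postn-Cre controls, was however lost when that comparison was fitted on its own 4 libraries (adjusted p = 0.0963).

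**Figure D1:**
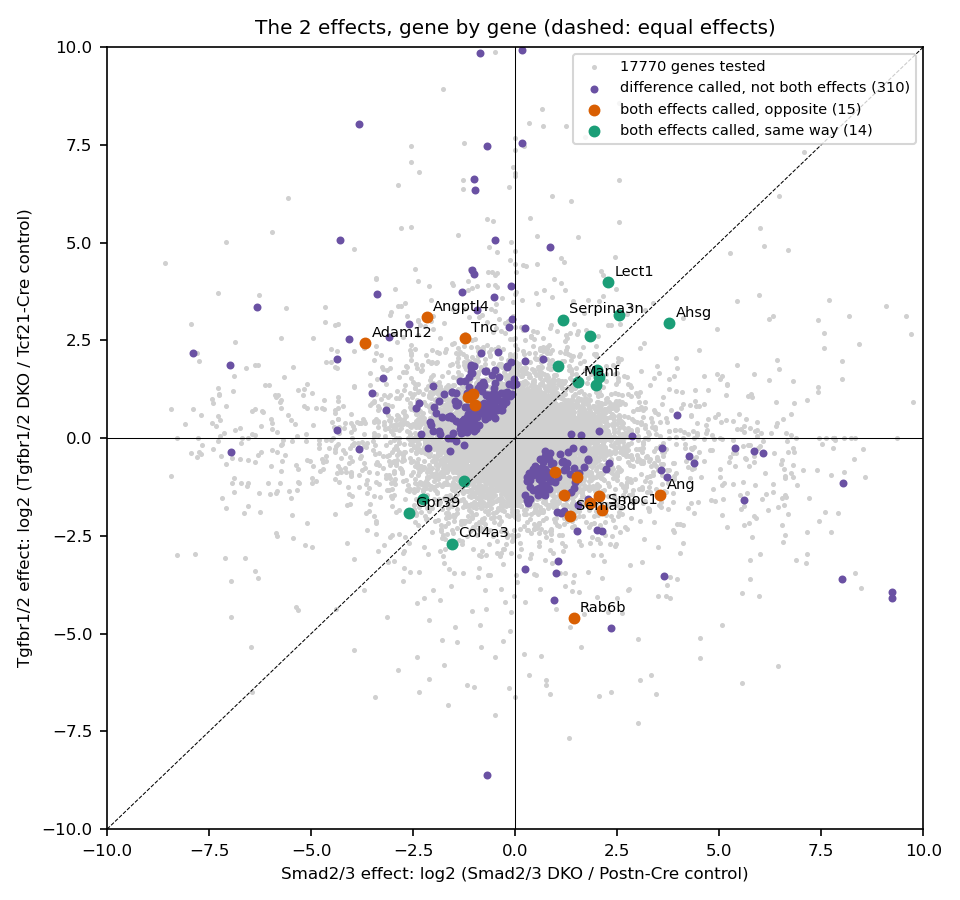
Each point is 1 gene, with the log2 fold change of the Smad2/3 DKO against Postn-Cre controls on the x axis and that of the Tgfbr1/2 DKO against Tcf21-Cre controls on the y axis. The cloud of 17770 genes shows little slope (Pearson's r of -0.0541), and coloured points mark the genes called for the difference and the 14 parallel and 15 opposed genes.

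The opposed genes that fell without Smad2/3 and rose without the receptors were Adam12, Angptl4, Tnc, Col4a1, Col4a2 and Gpr133. Below, values are CPM for the individual libraries, always in the order Postn-Cre control HK3 and HK4, Smad2/3 DKO HK15 and HK16, Tcf21-Cre control HK6 and HK7, Tgfbr1/2 DKO HK2 and HK4. Fold changes come from the fit, with standard errors (SE) from its F statistic. That statistic pools the spread over all groups of 2 libraries and moderates it toward that of other genes.

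Adam12 encodes a disintegrin and metalloprotease found on activated fibroblasts (chromosome 7, 133883199 to 134232146 in GRCm38, the mm10 build). It stood at 24.2 and 26.6 CPM in the Postn-Cre controls, 1.76 and 2.37 in the Smad2/3 DKO, 14.1 and 9.38 in the Tcf21-Cre controls and 60.1 and 58.3 in the Tgfbr1/2 DKO. The groups of each comparison did not overlap, in opposite directions. It was 12.8-fold lower without Smad2/3 (adjusted p = 0.000282) and 5.41-fold higher without the receptors (adjusted p = 0.00168). The difference was -6.11 ± 0.39 on the log2 scale (SE, adjusted p = 3.13e-05).

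Angptl4 encodes a secreted inhibitor of lipoprotein lipase and is a known TGF-beta target (chromosome 17, 33773750 to 33781830). Its control levels were alike under both drivers, at 19 and 19 CPM with Postn-MerCreMer and 15.3 and 19 with Tcf21-MerCreMer. The Smad2/3 DKO had 4.70 and 4.10 CPM and the Tgfbr1/2 DKO 141 and 133. The fold changes were 4.49-fold down and 8.49-fold up, and the difference was -5.25 ± 0.31 (adjusted p = 3.13e-05). The mutant groups stood on either side of 4 similar control libraries.

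Tnc encodes tenascin-C, a matricellular protein of wounds. It lay at 318 and 388, 144 and 169, 183 and 267, and 1164 and 1309.9 CPM. It was 2.34-fold lower without Smad2/3 and 5.84-fold higher without the receptors, a difference of -3.77 ± 0.34 (adjusted p = 0.00041). Gpr133, an adhesion receptor now named Adgrd1, lay at 221 and 193, 117 and 101, 369 and 275, and 605 and 486 CPM, a difference of -1.83 ± 0.26 (adjusted p = 0.00987), which was no longer called without Smad2/3 DKO HK16 (adjusted p = 0.0541). Gpr133 had the smallest effects of these 6 genes.

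Col4a1 and Col4a2 encode the chains of the main basement-membrane collagen and are neighbours on chromosome 8. Col4a1 (11198423 to 11312826, minus strand) lay at 893 and 863, 464 and 434, 1120.2 and 843, and 2066 and 1937 CPM. Col4a2 (11312805 to 11449287, plus strand) lay at 737 and 818, 408 and 316, 803 and 841, and 1675 and 1500.1 CPM. The chains moved by similar amounts: Col4a1 was 2.03-fold lower and 2.18-fold higher, and Col4a2 2.23-fold lower and 2.05-fold higher, in the Smad2/3 and Tgfbr1/2 comparisons. The differences were -2.15 ± 0.25 (adjusted p = 0.00308) and -2.20 ± 0.26 (adjusted p = 0.00314). Both differences held without any single library, but Col4a2 was not called in both single comparisons in any of the 8 fits that left out a library.

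The pair is shown because it is transcribed head to head from a shared promoter. In the RefSeq windows of GRCm38.p6, which run from 250 bases before to 50 bases after each start, the starts lie 21 bases apart on opposite strands and the windows share 78 bases. The Col4a2 window (chr8:11312555-11312854, plus strand, 5′ to 3′) has those shared bases in capitals:
Col4a2: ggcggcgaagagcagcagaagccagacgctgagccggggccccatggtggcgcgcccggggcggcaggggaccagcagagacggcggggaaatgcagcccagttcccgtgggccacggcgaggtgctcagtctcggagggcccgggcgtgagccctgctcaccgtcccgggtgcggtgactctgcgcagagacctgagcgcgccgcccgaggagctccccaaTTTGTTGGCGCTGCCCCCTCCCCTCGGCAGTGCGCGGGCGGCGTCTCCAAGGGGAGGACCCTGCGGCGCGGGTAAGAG
Transcripts on opposite strands overlap there, and no strand-marking step is described, so reads from the overlap cannot be assigned by strand. The overlap is short beside the transcripts.

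The opposed genes in the other direction rose without Smad2/3 and fell without the receptors: Rab6b, Sema3d, Ang, Smoc1, Pdlim3, Peg3, Nup210l, Prkab2 and Adam22. No shared textbook function covers these 9. Rab6b, a small GTPase of Golgi transport best known from neurons, lay at 14.5 and 17.4, 46.8 and 42.3, 91.8 and 50.7, and 2.36 and 3.07 CPM. It was 2.69-fold higher without Smad2/3 and 24.2-fold lower without the receptors, a difference of 6.03 ± 0.43 (adjusted p = 7.3e-05). The Tgfbr1/2 DKO was far below every other group.

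Sema3d encodes a secreted semaphorin that guides axons and vessels. It lay at 109.7 and 108, 285 and 292, 81.0 and 55.7, and 14.4 and 17.5 CPM, a difference of 3.34 ± 0.29 (adjusted p = 0.000343). The control groups lay between the mutant groups, with the Tcf21-Cre controls below the Postn-Cre controls. Ang, which encodes the secreted ribonuclease angiogenin, lay at 3.23 and 2.13, 34.3 and 31.4, 20.8 and 13.0, and 5.86 and 5.58 CPM, a difference of 5.01 ± 0.47 (adjusted p = 0.000517). The mouse genome holds near-identical angiogenin copies, so this value is uncertain.

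Smoc1 encodes a matricellular protein that binds calcium and antagonises BMPs, and lay at 7.42 and 6.05, 34.0 and 26.9, 44.2 and 34.6, and 8.44 and 11.9 CPM. Pdlim3, a protein of actin filaments and Z-discs, lay at 13.9 and 8.87, 50.2 and 48.4, 98.4 and 109, and 35.6 and 34.3 CPM. In both genes the Tcf21-Cre controls were the highest of the 4 groups and the Postn-Cre controls were the lowest. Their differences were 3.96 ± 0.42 (adjusted p = 0.00136) for Smoc1 and 3.53 ± 0.34 (adjusted p = 0.00067) for Pdlim3. Peg3, an imprinted zinc-finger gene expressed from the paternal allele, lay at 155 and 159, 382 and 365, 256 and 335, and 111 and 93.4 CPM, a difference of 2.65 ± 0.27 (adjusted p = 0.00103).

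Prkab2, the beta-2 subunit of the energy sensor AMPK, had a difference of 1.86 ± 0.22 (adjusted p = 0.00314), from 136 and 148 up to 295 and 289.6 CPM in the first pair of groups and from 117 and 105 down to 56.0 and 56.9 CPM in the second. Nup210l, related to a nuclear pore protein, had a difference of 2.49 ± 0.27 (adjusted p = 0.00182) and Adam22, an ADAM protein without protease activity, 3.50 ± 0.52 (adjusted p = 0.0115). The Adam22 difference was lost without Tgfbr1/2 DKO HK4 (adjusted p = 0.0503). All other differences of the opposed genes, Gpr133 apart, were called in each of the 8 fits that left out a library. Their single effects were less secure: Adam22, Col4a2, Gpr133 and Prkab2 were called in both comparisons in none of those fits, Col4a1 and Ang in 2, and Tnc, Nup210l, Peg3, Rab6b and Sema3d in 4. Pdlim3 and Smoc1 were called in both in 5. With the transcript-length trend removed Tnc, Nup210l and Adam22 were no longer called in both, nor were Adam22 and Gpr133 with each comparison fitted on its own 4 libraries.

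**Figure D2:**
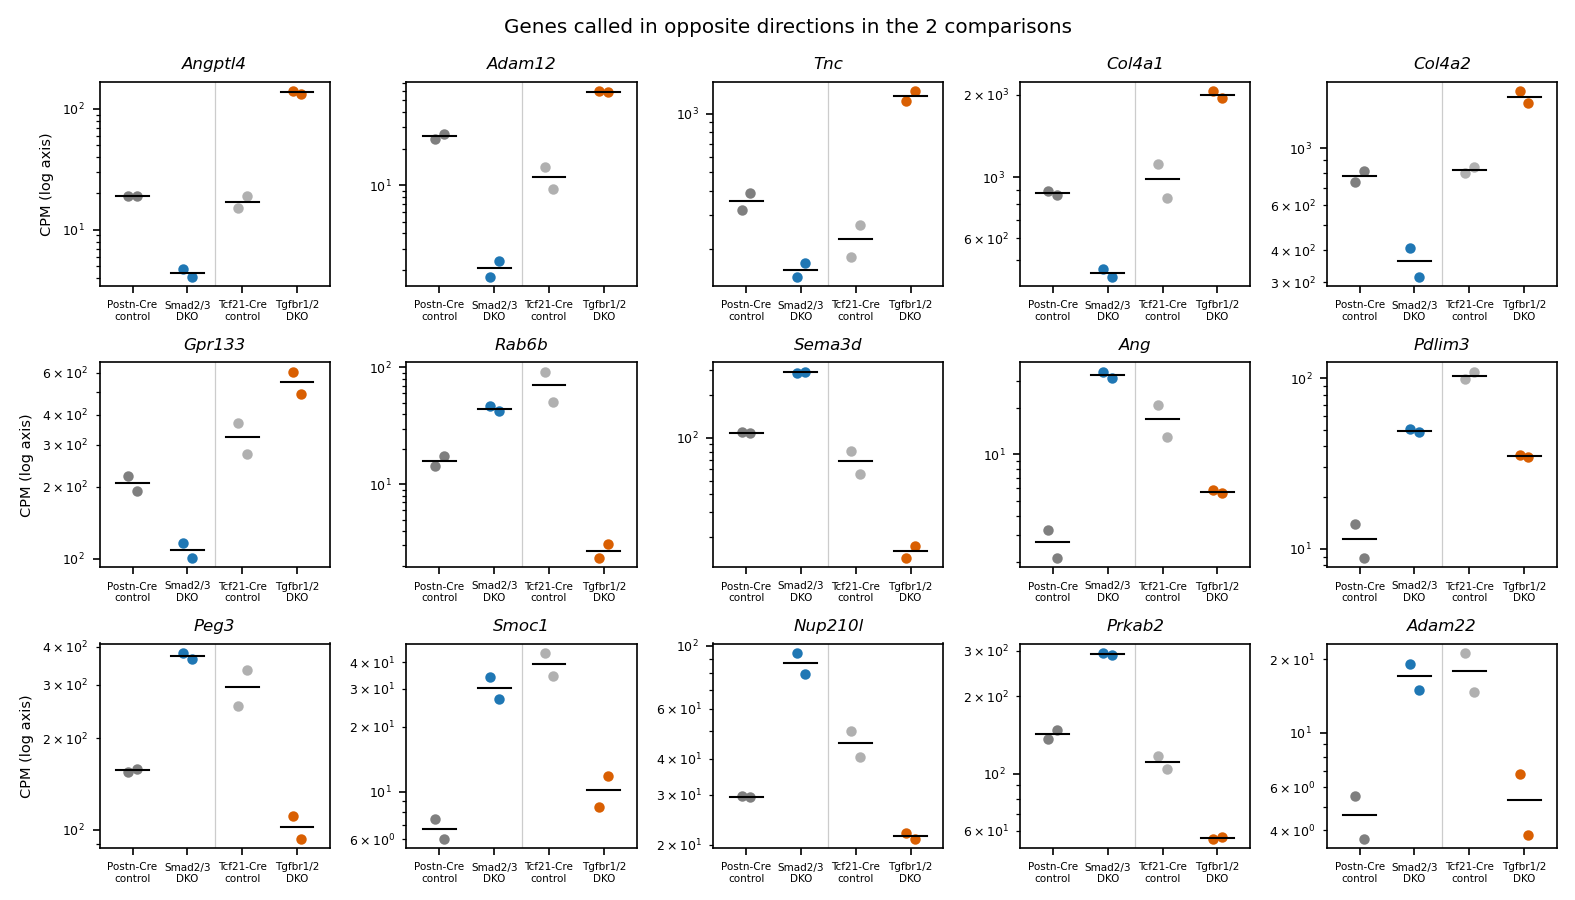
CPM (log axis) of the genes that moved in opposite directions, with 1 point per library and the 4 groups side by side (short lines are group means). Angptl4 stands at 15.3 to 19 CPM in all 4 control libraries, at 4.10 to 4.70 in the Smad2/3 DKO and at 133 to 141 in the Tgfbr1/2 DKO.

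The genes that rose in both comparisons included a group that works in the endoplasmic reticulum (ER), where secreted proteins fold: Manf, Creld2, Hyou1 and Sdf2l1. Manf, which encodes a secreted factor released under ER stress (chromosome 9, 106838312 to 106891979), showed the closest match between the comparisons. It lay at 24.2 and 23.8 CPM in the Postn-Cre controls and 72.2 and 71.7 in the Smad2/3 DKO, and at 28.4 and 28.3 in the Tcf21-Cre controls and 70.6 and 71.9 in the Tgfbr1/2 DKO. It was 2.89-fold higher without Smad2/3 (adjusted p = 0.00462) and 2.68-fold higher without the receptors (adjusted p = 0.00465). Its difference was 0.11 ± 0.26 (adjusted p = 0.882) and smaller than its SE.

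Creld2, an ER-resident protein induced by misfolding, lay at 17.0 and 6.92, 55.7 and 48.6, 23.2 and 23.8, and 66.8 and 63.2 CPM. It was 4.16-fold and 2.94-fold higher. Sdf2l1, part of an ER chaperone complex, lay at 1.50 and 2.31, 7.17 and 6.84, 5.82 and 5.44, and 36.4 and 28.1 CPM, 3.56-fold and 6.07-fold higher. Hyou1, a large ER chaperone, lay at 57.7 and 62.0, 158 and 98.6, 86.6 and 80.6, and 291 and 268 CPM, 2.06-fold and 3.56-fold higher. In each of the 3 genes both mutant libraries exceeded both controls of their own comparison.

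The calls of these 3 genes in both comparisons were less stable than that of Manf. Without Smad2/3 DKO HK15 the Smad2/3 effect was lost for Creld2, Sdf2l1 and Hyou1. The Smad2/3 effect of Creld2 was also lost without Smad2/3 DKO HK16, with adjusted p up to 0.0838 over these fits. That of Sdf2l1 was kept only without Postn-Cre control HK4 or either Tcf21-Cre control (adjusted p up to 0.0969). That of Hyou1 was kept only without Smad2/3 DKO HK16 or either Tcf21-Cre control (up to 0.177). The Tgfbr1/2 effect of Creld2 was kept only without a Postn-Cre control (up to 0.198), whereas those of Hyou1 and Sdf2l1 held in all 8 fits. Fitted on the 4 libraries of that comparison alone, the Smad2/3 effect was also lost for Hyou1 (adjusted p = 0.0591) and Sdf2l1 (adjusted p = 0.145). Creld2 was no longer called in both with the length trend removed.

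Promoters of Creld2 and Sdf2l1 from this group, and of Hspa5 from the wider ER list, are shown because many ER chaperone genes share a known regulatory sequence. This is the ER stress element, spelled CCAAT, 9 bases of any kind and CCACG. Manf and Hyou1 had no window in the set used, so their promoters were not searched. Of the 27 tested genes of the ER list, 22 had a RefSeq window of GRCm38.p6, and 7 of these (31.8%) held an exact match on either strand: Hspa5, Hsp90b1, Calr, Canx, Pdia6, Dnajc3 and Creld2. Among the 11270 tested genes with a window, 21 (0.186%) held one. Counted by window, 39 of all 32851 (0.119%) did. Windows of Creld2 (chr15:88819396-88819695, plus strand), Hspa5 (chr2:34771840-34772139, plus strand) and Sdf2l1 (chr16:17132334-17132633, minus strand) are printed 5′ to 3′ with any match in capitals, the first in reverse orientation:
Creld2: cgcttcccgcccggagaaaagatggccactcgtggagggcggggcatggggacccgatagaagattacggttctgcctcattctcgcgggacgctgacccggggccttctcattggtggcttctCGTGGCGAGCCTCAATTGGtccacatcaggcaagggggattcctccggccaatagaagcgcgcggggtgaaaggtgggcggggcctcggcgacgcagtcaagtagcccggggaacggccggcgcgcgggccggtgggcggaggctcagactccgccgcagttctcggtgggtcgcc
Hspa5: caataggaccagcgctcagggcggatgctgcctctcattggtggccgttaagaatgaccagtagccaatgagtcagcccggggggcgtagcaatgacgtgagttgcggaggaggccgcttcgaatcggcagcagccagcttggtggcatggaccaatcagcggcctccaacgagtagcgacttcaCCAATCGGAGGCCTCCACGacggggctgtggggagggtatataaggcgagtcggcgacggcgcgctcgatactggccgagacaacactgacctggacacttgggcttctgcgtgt
Sdf2l1: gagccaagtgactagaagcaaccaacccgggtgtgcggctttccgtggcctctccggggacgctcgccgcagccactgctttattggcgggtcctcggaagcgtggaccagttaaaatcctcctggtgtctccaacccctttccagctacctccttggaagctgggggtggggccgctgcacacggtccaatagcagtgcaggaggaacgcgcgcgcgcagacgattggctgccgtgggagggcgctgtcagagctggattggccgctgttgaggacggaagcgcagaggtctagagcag
Sdf2l1 held no exact match in this window. None of the 77 genes called higher for the difference, and none of the 145 called lower, that have a window held the element. With the element in 0.186% of tested genes, sets of this size would seldom hold one. Its absence from them therefore shows no contrast with the ER list. Windows were also searched for CAGAC, the short Smad-binding sequence, on both strands. Of genes called for the difference, 57.1% of those higher and 52.4% of those lower held it, against 52.8% of the 11270 tested genes. In the ER list 8 of the 22 genes with a window (36.4%) held it, Creld2 and Sdf2l1 among them.

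Across the whole ER list the pattern was broader than the calls. Of its 27 tested genes, 19 had positive effects in both comparisons, 4 were called up without Smad2/3 (0.433% of all genes were) and 9 without the receptors (1.14% of all genes), and none was called for the difference. The 4 are the genes above, all of which are among the 9. The others of the 9 were Calr, P4hb, Pdia4, Pdia6 and Sec61a1. The median effect of the list was 0.38 without Smad2/3 and 0.65 without the receptors, against 0.01 and -0.01 over all genes. Without Smad2/3 DKO HK15 the Smad2/3 median was 0.22. Hspa5, the chief ER chaperone, lay at 1465 and 1266, 2384 and 2040.1, 976 and 869, and 1195 and 1744 CPM and was called in neither comparison (adjusted p of 0.201 and 0.142). The counts moved with single libraries: 1 to 4 rises without Smad2/3, fewest without Smad2/3 DKO HK15, and 4 to 8 without the receptors, fewest without Tcf21-Cre control HK6.

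Other genes that rose in both comparisons had varied roles. Dpep1, a membrane dipeptidase, lay at 218 and 137, 793 and 664, 322 and 236, and 721 and 616 CPM, 3.93-fold and 2.56-fold higher. Serpina3n, a secreted protease inhibitor of the acute-phase response, lay at 167 and 131, 399 and 303, 192 and 231, and 1708 and 1541 CPM. Its rises of 2.26-fold and 8.15-fold were unequal, and it alone of the parallel genes was called for the difference (-1.85 ± 0.30, adjusted p = 0.0164), though not without Smad2/3 DKO HK16 (adjusted p = 0.0693). Near-identical Serpina3 copies make its counts uncertain.

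Mmp3, the protease stromelysin 1, lay at 2.69 and 8.27, 27.3 and 38.5, 1.75 and 0.924, and 9.63 and 12.5 CPM. Ptges, which makes prostaglandin E2, lay at 1.73 and 2.31, 7.05 and 9.68, 17.1 and 13.4, and 52.0 and 43.6 CPM. Both have secreted products tied to inflammation, and both rose 3.34-fold or more in each comparison. Ahsg, the plasma glycoprotein fetuin-A, rose from 0.308 and 0.0870 to 2.55 and 3.35 CPM and from 9.90 and 6.98 to 63.4 and 58.1 CPM. Lect1, the antiangiogenic chondromodulin now named Cnmd, rose 4.84-fold and 15.9-fold from levels of 0.719 to 2.31 CPM in the controls.

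Only 4 genes fell in both comparisons: Gpr39, D0H4S114, Col4a3 and Fndc1. Gpr39, a zinc-sensing receptor, lay at 63.4 and 67.0, 9.48 and 12.9, 49.2 and 32.2, and 10.8 and 9.39 CPM, 6.08-fold and 3.77-fold lower. D0H4S114, the older symbol of Nrep (P311), which is linked to TGF-beta production and myofibroblasts, lay at 44.7 and 49.8, 7.79 and 12.6, 156 and 266, and 69.9 and 66.1 CPM. Col4a3, a chain of a specialised basement-membrane collagen, lay at 329 and 289.8, 93.9 and 127, 263 and 166, and 35.4 and 26.2 CPM, 2.92-fold and 6.51-fold lower, so this chain fell in both comparisons while Col4a1 and Col4a2 moved oppositely. Fndc1, a fibronectin-repeat protein, lay at 390.5 and 353, 168 and 154, 764 and 882, and 357 and 364 CPM.

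The stability of the parallel genes varied. Manf and Ahsg were called in both comparisons in all 8 fits that left out a library, Gpr39 in 7, Col4a3 in 6 and Dpep1 in 5. D0H4S114 and Serpina3n were called in 4, Hyou1 and Sdf2l1 in 3, and Creld2, Fndc1, Lect1, Mmp3 and Ptges in 2. The Gpr39 receptor effect was the call lost, without Tgfbr1/2 DKO HK4 (adjusted p = 0.0633). For Dpep1 it was the Tgfbr1/2 effect, without Tcf21-Cre control HK7, Tgfbr1/2 DKO HK2 or Tgfbr1/2 DKO HK4 (adjusted p up to 0.129). With each comparison fitted on its own 4 libraries, Ahsg, Hyou1, Lect1, Ptges and Sdf2l1 were no longer called in both.

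**Figure D3:**
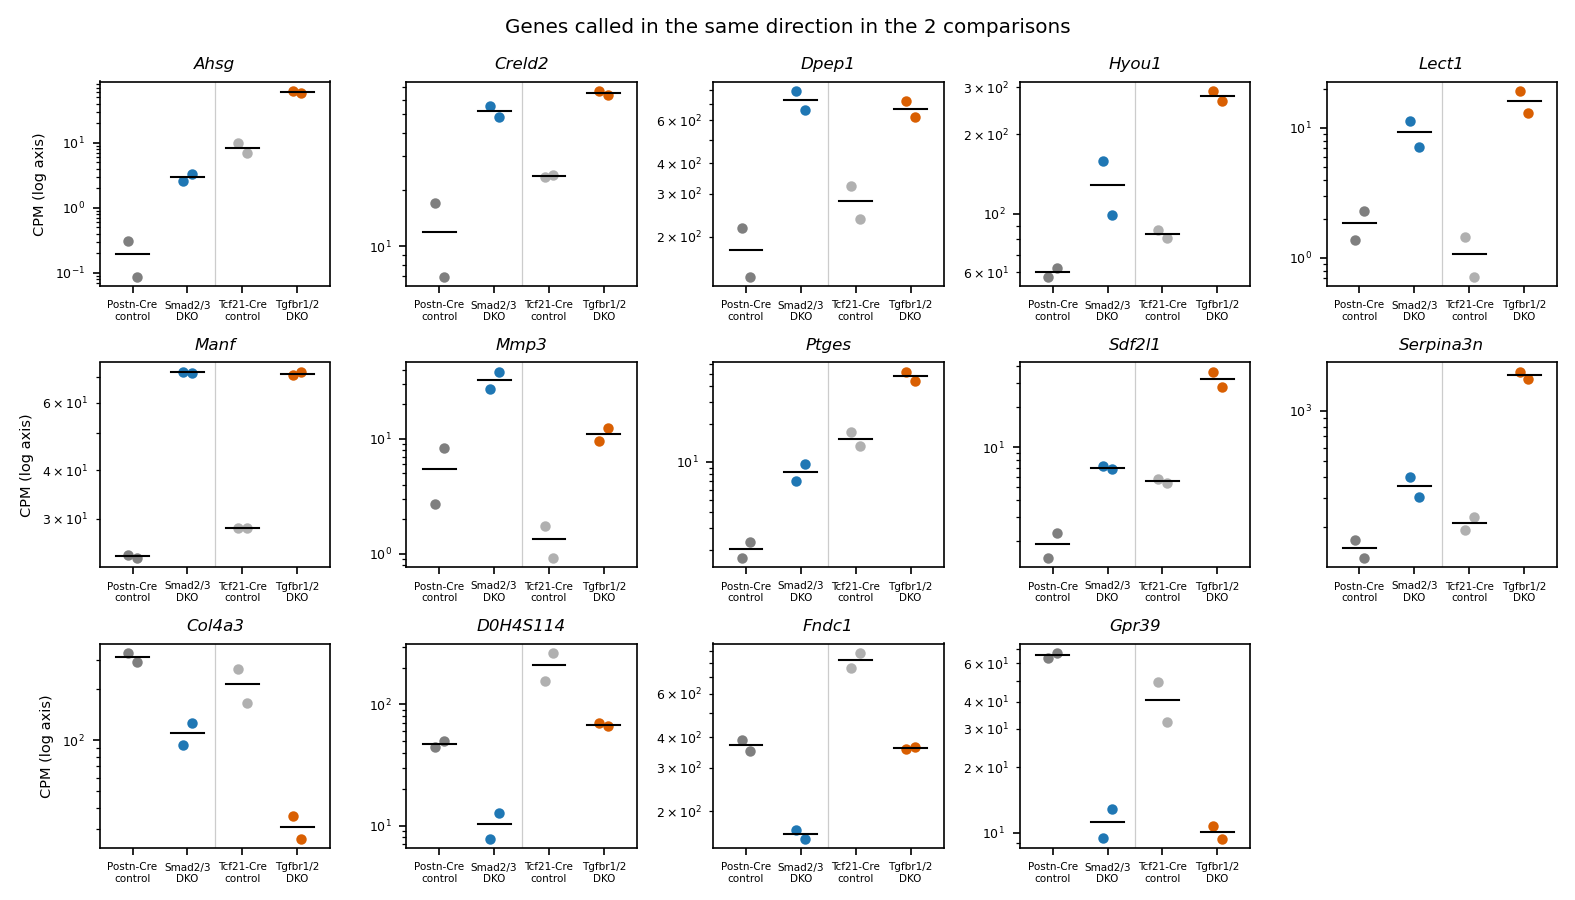
CPM (log axis) of the genes that moved the same way in both comparisons, with 1 point per library and the 4 groups side by side (short lines are group means). Manf stands at 23.8 to 28.4 CPM in the 4 control libraries and at 70.6 to 72.2 in the 4 mutant libraries.

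Beyond these 29 genes, some of the largest positive differences came with a called rise without Smad2/3 and no called change without the receptors. Gabra3, a GABA receptor subunit, lay at 0.346 and 0.174, 65.5 and 79.5, 3.80 and 2.36, and 1.01 and 1.57 CPM, a difference of 9.17 ± 0.58 (adjusted p = 3.13e-05). It was 2.21-fold lower without the receptors, which was not called (adjusted p = 0.163). Fmo2, a flavin monooxygenase of xenobiotic metabolism, lay at 48.0 and 35.5, 609 and 743, 102 and 104, and 156 and 135 CPM, a difference of 3.37 ± 0.28 (adjusted p = 0.000306). Fmo2 was 15.5-fold higher without Smad2/3 (adjusted p = 1.34e-05) and 1.5-fold higher without the receptors, the latter not called (adjusted p = 0.196).

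Cwc22, a splicing factor with near-identical copies in the mouse genome, lay at 30.2 and 32.8, 390.0 and 399, 24.3 and 22.3, and 17.6 and 18.6 CPM, a difference of 3.86 ± 0.24 (adjusted p = 3.13e-05). Kcnj15, an inward-rectifier potassium channel, lay at 31.8 and 33.1, 146 and 170.4, 39.3 and 34.4, and 17.9 and 21.7 CPM, a difference of 3.02 ± 0.28 (adjusted p = 0.000517). Art4, an ADP-ribosyltransferase of the blood-group family, lay at 0.231 and 0.218, 12.3 and 10.8, 10.9 and 13.1, and 4.76 and 2.84 CPM, a difference of 7.20 ± 0.63 (adjusted p = 0.000343). In Art4 the Postn-Cre controls stand apart from the other 6 libraries, and it was 3.01-fold lower without the receptors, not called (adjusted p = 0.0673). The differences of Gabra3, Fmo2, Cwc22, Kcnj15 and Art4 held without any single library. The positive differences of Gal3st2 (5.09) and Slc13a4 (4.44) came instead with called falls without the receptors, of -4.15 and -3.44 on the log2 scale, and no called Smad2/3 effect. The Gal3st2 difference was lost without Tgfbr1/2 DKO HK4, and that of Slc13a4 without any 1 library except Tcf21-Cre control HK6 (edgeR adjusted p up to 0.0591 and 0.182).

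Xist, the RNA that coats the inactive X chromosome of female cells, also belongs here. It lay at 3.65 and 2.18, 277 and 75.3, 1.75 and 1.27, and 1.07 and 1.17 CPM, a difference of 6.18 ± 0.79 (adjusted p = 0.00476). The Y-linked gene Ddx3y lay at 164 and 222, 132 and 177, 112 and 68.2, and 56.6 and 62.0 CPM. Both Smad2/3 DKO libraries thus carry Xist with Ddx3y at a level like that of their controls, and the 2 mutant libraries differ in Xist. The labels give no sex, and any part of sex in the Smad2/3 effect and in the differences was not tested. Of the 326 genes called, 20 lie on X or Y, against 614 of the 17770 tested.

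A second set changed chiefly without the receptors. Timp1, the tissue inhibitor of metalloproteases and a TGF-beta target, lay at 93.9 and 101, 96.6 and 95.5, 104 and 123, and 938 and 829 CPM. It was 8.24-fold higher without the receptors (adjusted p = 7.25e-05) and 1.05-fold lower without Smad2/3 (adjusted p = 0.872), a difference of -3.12 ± 0.25 (adjusted p = 0.000208). The 6 other libraries lay within 93.9 to 123 CPM. Timp1 lies within the gene Syn1 on the opposite strand.

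Aldh1a2, which makes retinoic acid and marks the epicardium, lay at 39.4 and 35.1, 13.7 and 17.7, 49.3 and 16.5, and 387 and 419.9 CPM, a difference of -5.04 ± 0.54 (adjusted p = 0.00143). Serpina3g, a protease inhibitor induced in inflammation, lay at 2.77 and 2.48, 4.54 and 5.26, 1.44 and 1.75, and 44.4 and 44.6 CPM, a difference of -4.05 ± 0.43 (adjusted p = 0.00143). Ugt1a6a, a glucuronosyltransferase of detoxification that shares sequence with Ugt1a6b, lay at 1.58 and 1.31, 1.25 and 1.54, 2.91 and 1.88, and 35.9 and 30.4 CPM, a difference of -3.99 ± 0.51 (adjusted p = 0.00476). In all 3 genes the Tgfbr1/2 DKO stood apart from the other 6 libraries. The calls of Timp1, Aldh1a2, Serpina3g and Ugt1a6a held without any single library.

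Several large negative differences rest on very low counts. F13a1, the A chain of clotting factor XIII and a macrophage marker, had no count in either Smad2/3 DKO library against 0.885 and 1.09 CPM in the controls, and 2.19 and 2.98 against 13.5 and 8.62 CPM in the second comparison. With 3 counts per library as the floor it was at least 7.67-fold lower without Smad2/3, and it was 4.28-fold higher without the receptors by group means, so the difference was -5.04 or below. Of the 326 genes called, 8 had a group without a count. Lcn2 and Saa3, acute-phase proteins, were at 0 to 2.65 CPM in every library except the Tgfbr1/2 DKO, with 27.1 and 24.5 CPM of Lcn2 and 14.5 and 13.2 CPM of Saa3. The Lcn2 difference was lost without Smad2/3 DKO HK16, Tcf21-Cre control HK7 or either Tgfbr1/2 DKO library, and that of Saa3 without Postn-Cre control HK3 or Tgfbr1/2 DKO HK4 (edgeR adjusted p up to 0.0646 and 0.0639). Fewer cells of a type and less RNA per cell cannot be told apart in these bulk libraries.

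Gene lists were read next, by their counts and medians, and a median that moved by over 1.5 times when 1 library was left out is followed by a value without such a library. Over all genes 0.664% were called higher and 1.17% lower for the difference, and every count of called differences below reads against these shares. Counts of signs of the difference read against 50.6% positive over all genes. Genes of a list share the same 8 libraries, so they are not separate observations. Counts of called single effects read against 0.433% up and 0.580% down for the Smad2/3 effect. For the Tgfbr1/2 effect the shares are 1.14% up and 0.540% down. Of the 326 called genes 72 belong to a list, as do 851 of the 17770 tested. Of these 72, 21 were called in each of the 8 fits that left out a library, among them Adam12, Angptl4, Timp1, Tnc, Col4a1, Col4a2, Col5a3, Loxl2, Cxcl12, Itgb3, Cd248, Eno1, Fmo2, Kcnj15, Sema3d and Smoc1. The other 51 lost the call without at least 1 library.

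Of 19 collagen chains tested, 9 had a called difference, all lower, against 1.17% of all genes called lower: Col3a1, Col4a1, Col4a2, Col5a1, Col5a3, Col6a1, Col6a2, Col6a3 and Col15a1. The list's median was -1.35 for the difference, -1.02 without Smad2/3 and 0.13 without the receptors, the last turning to -0.04 without Tcf21-Cre control HK6 and reaching 0.38 without HK7. Of its members, 10 fell without Smad2/3 (0.580% of all genes did), and 3 rose without the receptors, the last being Col4a1, Col4a2 and Col5a3. Except for the type IV pair and Col5a3, the collagen differences thus came with a called Smad2/3 effect and no called receptor effect. This list was chosen with the Smad2/3 results for collagens known, so its direction is no independent evidence. Col4a3 is not in the list. It fell more without the receptors (-2.70 on the log2 scale) than without Smad2/3 (-1.55). Its difference was thus positive, the other sign from these 9, and was not called.

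Col3a1, the chain of type III collagen, lay at 5129.8 and 4307, 1067 and 1147, 5187 and 7961, and 4627 and 5666 CPM. It was 4.44-fold lower without Smad2/3 (adjusted p = 0.0049) and 1.2-fold lower without the receptors (adjusted p = 0.755), a difference of -1.88 ± 0.37 (adjusted p = 0.0314). The call was lost without Postn-Cre control HK3, either Smad2/3 DKO library or Tgfbr1/2 DKO HK4 (adjusted p up to 0.0954). Col1a1, the main chain of type I collagen, lay at 1574 and 1479.7, 564 and 422, 2569 and 4204, and 2644 and 3005 CPM, and its difference of -1.51 ± 0.38 was not called (adjusted p = 0.0751). Col5a3, a minor fibril chain, lay at 24.3 and 31.5, 15.6 and 17.1, 105 and 104, and 195 and 157 CPM, a difference of -1.66 ± 0.26 (adjusted p = 0.0142) that held in all 8 fits. Leaving out 1 library at a time gave 3 to 9 collagen calls, fewest without Postn-Cre control HK3, Smad2/3 DKO HK16 or Tgfbr1/2 DKO HK4.

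Called differences of enzymes that process collagen had the same sign. Of 23 tested, 4 differed, all lower: Loxl2, Tgm2, Fkbp10 and Lepre1. The median difference of the list was -0.76. Loxl2, a lysyl oxidase that crosslinks collagen, lay at 878 and 873, 383 and 352, 849 and 845, and 1098 and 1068 CPM, a difference of -1.75 ± 0.24 (adjusted p = 0.00593) in all 8 fits. Its control groups were level with each other. Tgm2, a crosslinking transglutaminase, had a difference of -1.81 ± 0.30 (adjusted p = 0.0168), lost without Smad2/3 DKO HK16 (adjusted p = 0.0664). Fkbp10, an ER foldase of collagen, lay at 27.4 and 29.5, 14.5 and 7.22, 126 and 132, and 205 and 232 CPM, a difference of -2.30 ± 0.38 (adjusted p = 0.0178), lost without Tgfbr1/2 DKO HK4 (adjusted p = 0.0536). Leaving out 1 library gave 2 to 4 calls in this list, fewest without Smad2/3 DKO HK16 or Tgfbr1/2 DKO HK4.

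Matrix proteases and their inhibitors gave 4 lower differences among 27, with a median of -0.73: Adam12, Timp1, Serpine2 and Mmp14. Of the list, 6 genes rose without the receptors (1.14% of all genes did). Without Smad2/3, 2 fell (0.580% of all genes) and 1 rose (0.433%). Serpine2, an inhibitor of thrombin and plasminogen activators, lay at 311 and 281, 221 and 201, 308 and 342, and 641 and 681 CPM, a difference of -1.66 ± 0.25 (adjusted p = 0.0126), lost without Smad2/3 DKO HK16 (adjusted p = 0.0646). Matricellular and adhesive glycoproteins were mixed, with Smoc1 and Wisp2 higher and Tnc, Fbn1 and Ltbp1 lower among 40 genes and a median of -0.27, which was -0.64 without Smad2/3 DKO HK15 and -0.14 without Tcf21-Cre control HK6. Fbn1, the microfibril protein fibrillin-1, lay at 4158 and 3581, 1931 and 1451, 4031 and 4456, and 5067 and 5638 CPM. Its difference of -1.68 ± 0.31 (adjusted p = 0.0254) was lost without Postn-Cre control HK3, Smad2/3 DKO HK16 or Tgfbr1/2 DKO HK4 (adjusted p up to 0.1004). The protease list kept 2 calls without Smad2/3 DKO HK16, its lowest count.

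Some small leucine-rich proteoglycans differed the other way. Among 24 proteoglycan and hyaluronan genes Ogn, Omd and Gpc6 were higher and the basement-membrane proteoglycan Hspg2 was lower, with a median of -0.01, between -0.23 and 0.08 with 1 library left out. Ogn (osteoglycin), which binds collagen fibrils, lay at 924 and 824, 1185 and 1478, 651 and 947, and 313 and 241 CPM, a difference of 2.01 ± 0.33 (adjusted p = 0.0168). Omd (osteomodulin), its neighbour on chromosome 13, lay at 43.8 and 43.8, 68.5 and 94.3, 20.2 and 30.9, and 9.85 and 9.65 CPM, a difference of 2.15 ± 0.37 (adjusted p = 0.0192). For both the fall without the receptors was called (adjusted p of 0.0169 and 0.0361) and the Smad2/3 effect was not. The Ogn difference was lost without Smad2/3 DKO HK16 or Tgfbr1/2 DKO HK4, and that of Omd also without Postn-Cre control HK3 or Tgfbr1/2 DKO HK2 (up to 0.0676 for each). No higher call of the list remained without Smad2/3 DKO HK16 or without Tgfbr1/2 DKO HK4.

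Myofibroblast and adhesion genes with a called difference were all lower. Among 33 contractile and cytoskeletal genes 2 were lower, Itga5 and Flna, against 1.17% of all genes. The list median was -0.59 (-0.34 without Postn-Cre control HK3). No member was called for the Smad2/3 effect. Without the receptors 4 members rose (1.14% of all genes did) and 1 fell (0.540%). Acta2, the smooth-muscle actin that defines myofibroblasts, lay at 41.7 and 28.5, 36.9 and 18.2, 71.6 and 66.5, and 130.5 and 147 CPM, and its difference of -1.51 ± 0.43 was not called (adjusted p = 0.106). Itga5, the fibronectin receptor subunit, lay at 625 and 608, 507 and 463, 232 and 165, and 476 and 611 CPM, a difference of -1.97 ± 0.30 (adjusted p = 0.0126), lost without Smad2/3 DKO HK16 (adjusted p = 0.0606). Itgb3, a vitronectin receptor subunit that can activate latent TGF-beta, lay at 41.5 and 55.3, 28.7 and 17.3, 41.1 and 31.5, and 87.4 and 79.3 CPM, a difference of -2.42 ± 0.36 (adjusted p = 0.0118) in all 8 fits. Over the fits that left out a library the contractile list gave 0 to 4 lower calls, none without Smad2/3 DKO HK16. Of 22 integrin and focal-adhesion genes, 2 were called, the same Itga5 and Itgb3.

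The signalling pathway itself differed little. Of 26 TGF-beta ligands, receptors and Smads, 1 was called, the co-receptor Eng (endoglin), lower by -1.71 ± 0.27 (adjusted p = 0.0149) and lost without Smad2/3 DKO HK16 (adjusted p = 0.0606). Eng is also an endothelial marker. Among 27 tested TGF-beta and Smad3 target genes, 3 were lower (Angptl4, Adam12 and Timp1), in every leave-one-out fit. The median was -0.17, but -0.59 without Tgfbr1/2 DKO HK2 and -0.02 without Tcf21-Cre control HK6. Called effects of known targets lay in both directions. Without Smad2/3, 4 fell and 1 rose (0.580% and 0.433% of all genes did). Without the receptors, 3 rose and 1 fell (1.14% and 0.540% of all genes). The 11 tested BMP and Smad1/5 targets had the highest median of these signalling lists, 0.99, with 10 of 11 positive, but none was called (edgeR; 0.664% of all genes were called higher). That median was 0.33 without Tcf21-Cre control HK7 and 1.52 without Postn-Cre control HK3. Id3, a BMP-induced repressor, lay at 57.8 and 40.6, 115 and 88.9, 140.0 and 309, and 251 and 179 CPM (difference 0.99 ± 0.48, adjusted p = 0.321). Smad7, the inhibitory Smad, lay at 28.7 and 23.8, 65.4 and 47.9, 67.8 and 93.9, and 51.6 and 66.6 CPM (difference 1.41 ± 0.37, adjusted p = 0.087).

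Called differences of inflammatory genes were all lower. Of 35 chemokine, cytokine and NF-kB genes, 5 were called lower (Cxcl12, Saa3, Lcn2, Il1r1 and Il1rn) against 1.17% of all genes. The list's median was -0.32, but -0.77 without Tgfbr1/2 DKO HK2 and -0.18 without Tgfbr1/2 DKO HK4. Without the receptors 6 rose (1.14% of all genes did), among them the monocyte chemokines Ccl2 and Ccl7. Without Smad2/3, 2 rose (0.433% of all genes), Cxcl16 and the NF-kB inhibitor Nfkbia. Cxcl12, a stromal chemokine that retains blood progenitors, lay at 46.7 and 32.2, 17.7 and 21.9, 98.9 and 69.1, and 257 and 238 CPM, a difference of -2.71 ± 0.33 (adjusted p = 0.00314) in all 8 fits. Leaving out 1 library gave 1 to 5 calls, fewest without Tgfbr1/2 DKO HK4.

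Among 20 complement genes C3 and C2 were called lower, with a list median of -0.79 (-0.46 without Postn-Cre control HK3). C3, the central component, lay at 1073 and 789.7, 1225 and 1069.7, 1251 and 748, and 3796 and 3485 CPM. The Tgfbr1/2 DKO stood above the other 6 libraries. The C3 difference was -1.73 ± 0.34 (adjusted p = 0.0328). It was not secure: the call was kept only without Postn-Cre control HK4 or Tcf21-Cre control HK6 (edgeR adjusted p up to 0.116).

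Housekeeping programmes fell into 2 kinds. Ribosomal protein genes had parallel effects: 50 of 55 were positive in both comparisons, with medians of 0.44 without Smad2/3 and 0.50 without the receptors and -0.09 for the difference, none of them called for the difference. The Smad2/3 median was 0.27 without Postn-Cre control HK4, and that of the difference turned to 0.12 without Postn-Cre control HK3. Proteasome subunits, which degrade ubiquitin-tagged proteins, had a negative difference in all 31 of 31, median -0.66, with medians of -0.02 without Smad2/3 and 0.57 without the receptors. The Smad2/3 median was 0.07 without Smad2/3 DKO HK15. Of these, Psma7 and Psmc4 were called lower. The Psma7 call was lost without Postn-Cre control HK3 or any Smad2/3 DKO or Tgfbr1/2 DKO library (edgeR adjusted p up to 0.0745), and that of Psmc4 without any 1 of the 8 libraries (up to 0.208). The 41 oxidative phosphorylation subunits had medians of 0.12 and 0.51 and a median difference of -0.43, with no call for the difference. The Smad2/3 median turned to -0.02 without Postn-Cre control HK4 and to -0.01 with the length trend removed. The 25 glycolysis and hypoxia genes had a median difference of -0.41 (-0.67 without Tgfbr1/2 DKO HK2). Among them Eno1, Gapdh and Pgk1 were lower. Of the list, 6 rose without the receptors (1.14% of all genes did) and none without Smad2/3 (0.433%).

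Eno1, the glycolytic enzyme enolase 1, lay at 39.9 and 32.5, 23.6 and 21.6, 45.7 and 53.0, and 158 and 149 CPM, a difference of -2.46 ± 0.28 (adjusted p = 0.00227) in all 8 fits. Gapdh lay at 667 and 598, 507 and 423, 775 and 838, and 1519 and 1598 CPM, a difference of -1.54 ± 0.27 (adjusted p = 0.0192), lost without Postn-Cre control HK3, Smad2/3 DKO HK16 or Tgfbr1/2 DKO HK4 (up to 0.0843). Only the Tgfbr1/2 DKO was clearly above its control in both genes. Glycolytic and ribosomal protein genes have many processed pseudogene copies, which makes their counts uncertain.

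Several smaller lists held single strong members. Of 19 tested ion channels and transmitter receptors, 4 were higher (Gabra3, Gabre, Kcnj15 and Kcnt2) and the pericyte channel gene Kcnj8 lower, a median of 0.47 that was 0.18 without Smad2/3 DKO HK15. Among 31 axon-guidance genes Sema3d, Epha7 and Plxna4 were higher and Nrp2 lower. Of these 9, Gabra3, Kcnj15 and Sema3d were called in all 8 fits. Gabre was lost without Smad2/3 DKO HK16 or Tgfbr1/2 DKO HK4, Kcnt2 and Nrp2 without any 1 of the 8 libraries, and Kcnj8, Epha7 and Plxna4 without 4 to 6 of them (edgeR adjusted p up to 0.133). Dkk3, a secreted Wnt modulator, lay at 669 and 537, 1194 and 1069, 742 and 951, and 374 and 412 CPM, a difference of 1.87 ± 0.30 (adjusted p = 0.0164) that was lost without either Smad2/3 DKO library (adjusted p up to 0.0541). Cd248 (endosialin), a surface glycoprotein of stromal cells, lay at 50.3 and 37.3, 16.3 and 12.9, 157 and 148, and 227 and 187 CPM, a difference of -2.17 ± 0.29 (adjusted p = 0.00551) in all 8 fits. Cell-cycle genes, 1 called of 38, and 22 sterol genes, none called, showed little (edgeR).

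**Figure D4:**
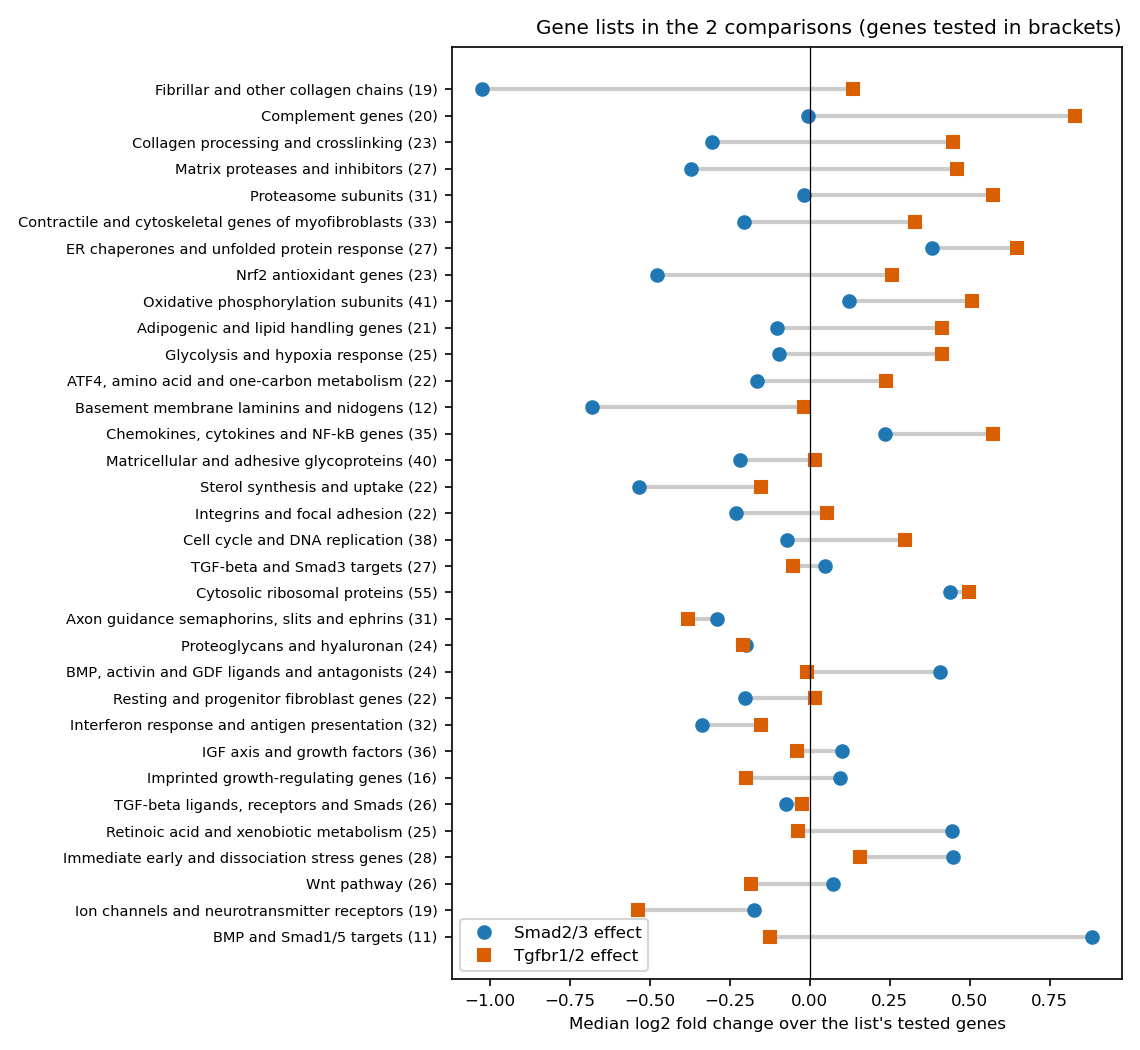
Median log2 fold change over the tested genes of each list, with a circle for the Smad2/3 effect, a square for the Tgfbr1/2 effect and a grey line between them, ordered by the median difference. Collagens sit at -1.02 without Smad2/3 and 0.13 without the receptors, whereas ER chaperones (0.38 and 0.65) and ribosomal proteins (0.44 and 0.50) are positive in both.

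Summed markers of some other cell types were higher without the receptors. Summed over 20 listed genes, myeloid markers were at 38.3 to 42.2 CPM in the Postn-Cre controls, 35.7 to 36.0 in the Smad2/3 DKO, 64.7 to 101 in the Tcf21-Cre controls and 248 to 256 in the Tgfbr1/2 DKO. No single myeloid marker was called for the difference, and the median of 18 tested was -3.12. Lyz2, a macrophage and neutrophil lysozyme, lay at 3.15 and 1.09, 1.96 and 0.559, 9.90 and 26.6, and 82.5 and 90.6 CPM. The defining gene Ptprc (CD45) was at 0 in 2 libraries and reached at most 2.07 CPM. The part of these cells in the inflammatory, complement and low-count differences was not tested.

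Epicardial and mesothelial markers summed to 61.7 to 71.0, 36.8 to 43.2, 46.4 to 84.0 and 429 to 445 CPM in the same order of groups. In the Tgfbr1/2 DKO most of this was Aldh1a2, with its 387 and 419.9 CPM. The defining gene Wt1 reached at most 7.27 CPM, and Krt8 and Krt18 were at 0 in 7 of 8 libraries. Endothelial markers summed to 587 to 1103, 503.1 to 622, 717 to 775 and 950.2 to 985 CPM, with Eng, Cav1 and Ly6c1 of 20 called lower for the difference. The Cav1 call was lost in 7 of the 8 fits that left out a library, and that of Ly6c1 in 6. The median of the endothelial markers was -0.96 without Smad2/3 and 0.59 without the receptors, a median difference of -1.73. Without Postn-Cre control HK3 the Smad2/3 median was -0.10 and that of the difference -0.80. Postn-Cre control HK3 held the 1103 and also the highest pericyte sum of 1605, against 898 in HK4. The part of endothelial and pericyte RNA in the type IV collagen and basement-membrane values was not tested. Cardiomyocyte markers summed to 588 to 768 CPM in all groups, most of it Atp2a2, a calcium pump that other cells also use, at 325 to 634 CPM. None of 18 was called (edgeR), but their median was -1.14 without Smad2/3, -0.13 without the receptors and -0.63 for the difference. With 1 library left out these ranged from -1.40 to -0.68, from -0.35 to 0.27 and from -1.34 to -0.29. Their part in the results was not tested.

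**Figure D5:**
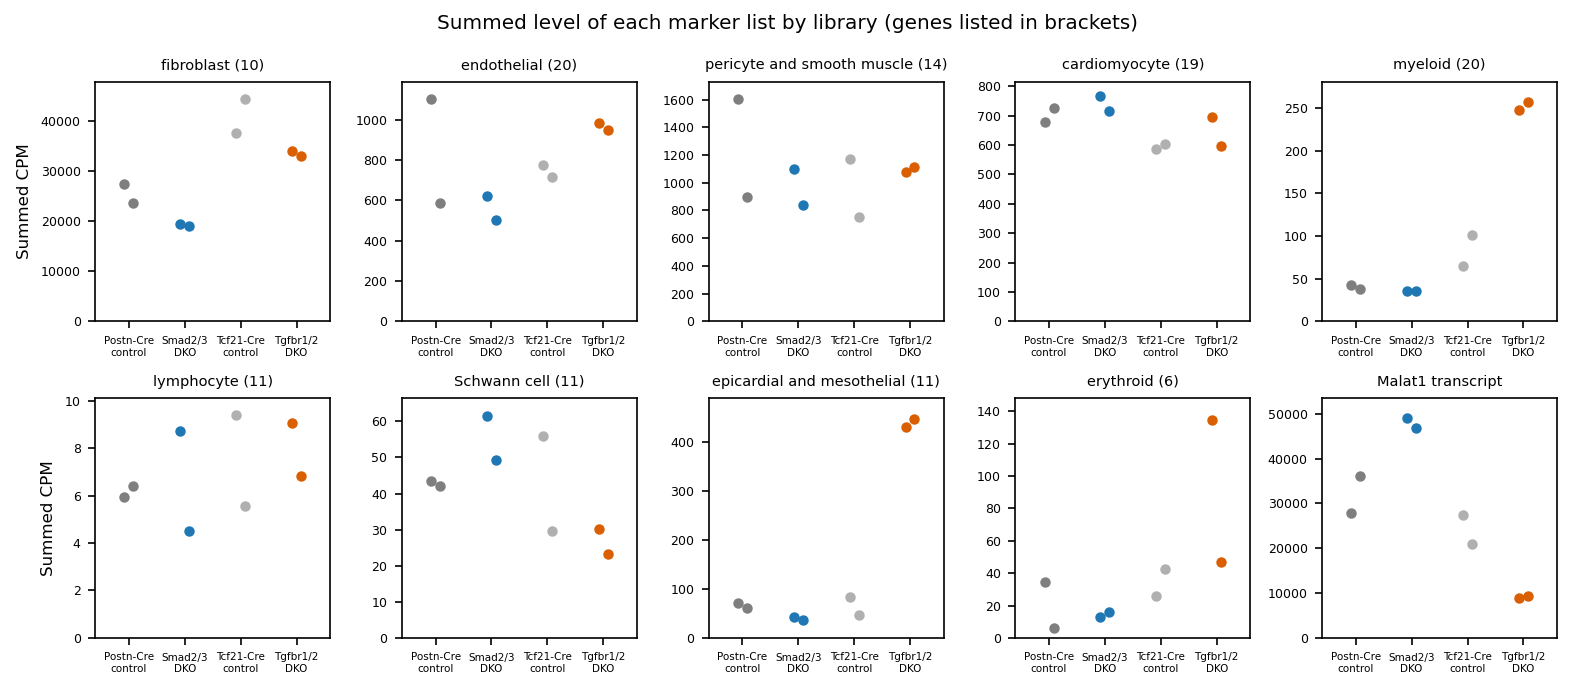
Summed CPM (linear axes that start at 0, each with its own scale) of marker genes of each cell type, with 1 point per library and the 4 groups side by side. Myeloid sums are at most 101 CPM in the other 6 libraries and 248 and 256 in the Tgfbr1/2 DKO, and fibroblast sums lie between 19104 and 44333 CPM.

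Library composition also differed between the groups. Malat1, a nuclear long non-coding RNA, lay at 27853 and 36029, 48941 and 46865, 27421 and 20923, and 8879 and 9317 CPM, that is 0.888% to 4.89% of a library. Its difference was 1.84 ± 0.31 (adjusted p = 0.0188), lost without Postn-Cre control HK3 or either Smad2/3 DKO library (adjusted p up to 0.0676). Transcript length moved with the effects: in the 3502 shortest genes the median Smad2/3 and Tgfbr1/2 effects were 0.13 and 0.10, and in the 3500 longest -0.06 and -0.15. Genes called higher for the difference had a median length of 4146 bases and those called lower 3447.5, against 3044 over all genes. With the length trend removed, 313 genes were called, and 301 of the 326 remained called. The ER and ribosomal lists kept positive medians in both comparisons, whereas the Smad2/3 median of the oxidative phosphorylation list turned.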

How the data were processed

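RNA of sorted GFP-positive cells was amplified with the Ovation RNA-Seq System v2, made into libraries by Nextera XT tagmentation and sequenced on a HiSeq2500, per the labels' protocols. The authors deposited 1 table per run with the expected counts (estimated counts per gene, not normalized) of each library, per the file headers and values. The submitters' processing notes name mm10 as the build. Which aligner and counter made the counts is not given in the sources used here. No strand-marking step is described.

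The tables were joined by Gene ID, entries of 1 symbol were summed (3966 entries into 278 symbols) and counts were rounded to whole numbers, since only 12.5% of the deposited values above 0 were whole. After edgeR's filterByExpr, 17770 genes were fitted in edgeR 4.0.16 (R 4.3.3; TMM scaling, quasi-likelihood F test with robust estimation, Benjamini-Hochberg adjustment over all genes, adjusted p under 0.05) with a mean for each of 4 groups. CPM are counts per 1000000 counts of the library, without TMM. SEs are the absolute fitted log2 changes divided by the square root of their F statistic. The sample titles gave the groups. The script was tested on simulated data.

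Alternatives were DESeq2 1.42.0, size factors of its type, no filter, no robust estimation, unsummed entries, each comparison fitted on its own 4 libraries, and leaving out each library. Removal of the transcript-length trend (limma 3.58.1 tools, loess) was added after seeing the data. The members, gene lists and rules were chosen with earlier results of these data known. Named genes were the targeted genes, the 15 most positive and 15 most negative called differences at 10 CPM or more, genes called in both comparisons, and up to 4 called members of each list. Gpr133, Malat1, Col1a1, Acta2 and members named only in a count were named after their values were seen. Gene positions come from GENCODE vM21 and promoter windows from RefSeq (GRCm38.p6). Within a group the libraries differed beyond counting noise, so none was treated as a duplicate. The authors' fold-change tables were not used. Some results are not reported here.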

Additional observations from a re-analysis of the deposited data

How the results depend on the processing

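Over the 8 fits that each left out 1 library, the number of genes called for the difference ranged from 89 (without Tgfbr1/2 DKO HK4) to 302 (without Postn-Cre control HK4), the higher calls from 31 to 87 and the lower calls from 58 to 221. The Smad2/3 effect was called for 48 (without Smad2/3 DKO HK16) to 218 genes and the Tgfbr1/2 effect for 58 (without Tgfbr1/2 DKO HK4) to 335. Genes called the same way in both comparisons numbered 4 to 19, and genes called oppositely 4 to 16. In these fits a lone library is assumed to vary like the other groups, and the filter tests 18862 to 19231 genes. All 326 called differences kept their sign in each of them. Higher genes made up 36.2% of the calls, and 23.0% without Tgfbr1/2 DKO HK2.

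More genes were called without the low-count filter and with DESeq2. The difference gave 1194 genes without the filter (470 higher, 724 lower) and 1138 with DESeq2 (408 higher, 730 lower), against 326. The Smad2/3 effect gave 1192 and 1008, the Tgfbr1/2 effect 879 and 816, parallel genes 78 and 53, and opposed genes 100 and 71. Fitted on its own 4 libraries, the Tgfbr1/2 effect gave 659 genes. The cause was not tested. Other size factors, unsummed entries, no robust estimation and removal of the length trend moved none of these counts by 1.5 times. Of 89 named genes with a called difference, none was lost with DESeq2, other size factors, no filter or unsummed entries, and 4 each without robust estimation and with the length trend removed. Without Postn-Cre control HK4 the Serpina3m difference moved from -7.37 to -1.40 (edgeR), and without Smad2/3 DKO HK15 that of Lcp1 moved from -6.61 to -12.50. Without Tcf21-Cre control HK7 that of Slc13a4 moved from 4.44 to 2.79. Of 43 gene lists, 30 had a negative median difference, and 26 to 34 did under the alternatives.

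No paired analysis was possible because the groups compared share at most 1 replicate number (HK4, in different runs).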
